A study of Homo sapiens with 4 samples.

Results

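The genes described are the DEAD and DEAH box RNA helicases, measured in HEK293, an established line of human embryonic kidney origin. They were chosen by name: every gene whose symbol in the platform's gene table begins with DDX or DHX and a number, without DDX58 and without pseudogenes, each read from its brightest probe. The rule gave 50 genes (35 DDX and 15 DHX) of the 18774 genes named on the array. DHX33-DT, a non-coding transcript divergent from DHX33, shares the letters but is no helicase gene and was left out.

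Total RNA was taken 24 h after transfection, 1 sample to each of 4 Illumina Human-6 arrays. On 2 of the arrays the RNA came from cells given siRNA against MIF, the gene of macrophage migration inhibitory factor, and they are called 1# and 2# as in their titles. Cells given a control RNA and untreated cells have 1 array each, called the control arrays together. The series text gives MIF siRNA doses of 50 and 100 pmol/ml. Only the label of 2# states its dose, 50 pmol/ml, and the labels do not say whether both arrays used the same siRNA or which sequence the control RNA had. Whether the samples were grown as separate cultures is not stated, so every p-value below measures the spread between these arrays, which may be partly technical. That spread includes any difference in dose or siRNA between 1# and 2#. In the fit against both controls it also includes the difference between control RNA and untreated cells.

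Signals are intensities after quantile normalization between arrays, on a linear scale, and differences are log2. Median deposited intensities were 77.2 in 1#, 78.5 in 2#, 74.5 in control RNA and 71.9 in untreated cells. Both siRNA arrays thus had higher medians than both controls before normalization. MIF, the siRNA target, had signals of 11614 in 1# and 17040 in 2#, with 22463 for control RNA and 21908 for untreated cells. Of the cell line's markers fixed for this work, 8 of the 9 on the array passed the filter on dim signals and PAX2 did not. The keratin genes KRT8 and KRT18, VIM and NEFL had signals of 2504 (NEFL in 1#) or more on every array, and NEFM, INA, LHX1 and EYA1 had signals from 89.7 to 222.3. Of the 8, 1 was lower in all 4 pairs and 3 were higher, against 28.7% and 32.6% of all genes tested. The lower one was KRT18, with 12269 and 16965 in 1# and 2# against 17367 for control RNA and 18466 for untreated cells. The higher ones were VIM, INA and EYA1. EYA1 had 222.3 and 151.9 in 1# and 2# against 103.5 and 112.4. Of the markers of fibroblasts, blood, endothelium and liver on the array, 9 of 15 were over that filter (COL1A2, CD3E, CDH5, ALB, APOA2 and TTR were not), with summed signals of 1622 in 1# and 1533 in 2# against 1594 and 1564 in the control arrays. Within that sum 4 were lower in all 4 pairs and 2, COL3A1 and DCN, were higher. COL3A1, a fibroblast collagen gene, had 257.4 and 134.0 in 1# and 2# against 105.1 and 105.4. DCN had 79.9 and 78.2 against 74.3 and 73.0, and passed the filter only through the siRNA arrays. Among the lower ones, COL1A1 had 232.4 and 304.0 against 322.7 and 340.7. The part of these markers in any result was not tested. A total RNA array cannot tell fewer cells of a kind from less RNA per cell.

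DEAD and DEAH box proteins use ATP to open short RNA duplexes or to strip proteins off RNA, and their family names spell a stretch of amino acids in the ATP-binding core. In the nucleolus, several of them release small nucleolar RNAs from ribosomal RNA precursors so that the ribosomal subunits can mature. In the spliceosome, others drive each change of shape between assembly, catalysis and release, and in the cytoplasm further members act in translation, RNA decay and RNA sensing. Members were therefore grouped by role, each in the group of its best known place, although DHX15, DDX41, DHX9 and others act in more than 1 place.

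Of the 50 genes, 46 passed the filter, which asked for a mean signal above the median of all probes, 75.6. The testis and germline genes DDX4 and DDX25, the cancer-testis gene DDX53, and the Y-linked DDX3Y did not. Among the 46, 14 had both MIF siRNA signals below both control signals, against 28.7% of all 13755 genes tested. Another 12 had both above both controls, against 32.6% of all genes, and 20 were mixed. The 12 include DHX57, which passed the filter only through its siRNA signals. Together 26 went the same way in all pairs, against 61.4% of all genes. Read over the whole family, these shares are near the background: pairing each siRNA array with each control, 30.4% of members were lower in all 4 pairs and 26.1% were higher. The nucleolar members held 10 of the 14 lower ones.

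The differences were small throughout. The MIF siRNA mean was furthest from the control mean in DDX21, at 1.52-fold below it. In 22 members it was within 1.1-fold. No member was at least 1.5-fold lower or higher in all 4 pairs, a rule met by 0.400% of genes lower and 0.742% higher. In limma's fit of the MIF siRNA arrays against both control arrays, with Benjamini-Hochberg adjustment over all genes tested, 0 of 46 members had an adjusted p under 0.05, and neither did any gene (0%). At an unadjusted p under 0.05 there were 13 members, 8 lower and 5 higher, or 28.3% of them against 29.7% of all genes. The smallest adjusted p among members was 0.0588, that of DDX54. The count of 0 depended on the settings, and the smallest adjusted p over all genes was 0.0501 in limma, next to the threshold. A fit without 1# or 2# assumes that the remaining siRNA array varies as the controls do. The fit of all 4 arrays called 7.32% of all genes with an intensity trend in the variance. With arrays scaled to equal medians it called DDX21 (lower) and DDX54, DDX17 and DDX60 (higher), where it called 11.5% of all genes.

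**Figure D1:**
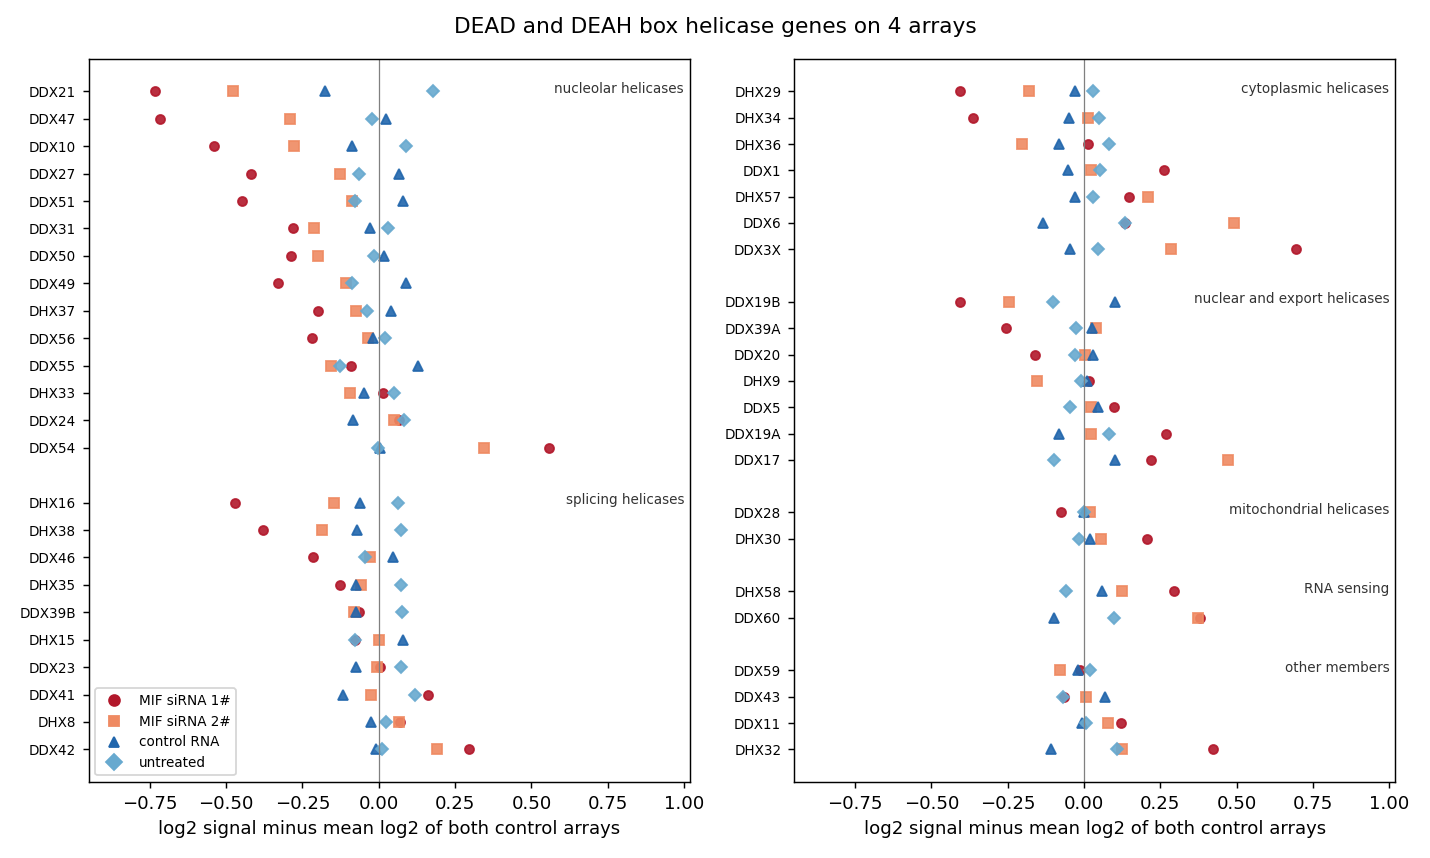
Each row is a helicase gene and each point an array, placed by its log2 signal minus the mean log2 signal of control RNA and untreated cells (x axis). In the nucleolar group, 10 of 14 genes have both siRNA points to the left of both control points, and DDX54 alone of that group has both to the right.

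Nucleolar helicases were the group with the most members below the controls. The role lists were chosen with earlier results of these data known, and the nucleolar counts after the data were seen. Of 14 measured, 10 were lower in all 4 pairs, 1 was higher and 3 were mixed, against 28.7% and 32.6% of all genes. Their median log2 difference of MIF siRNA from both control arrays was -0.23, against 0.01 over all genes tested. At an unadjusted p under 0.05 in limma, 5 were lower and 1 was higher, where 12.7% and 17.0% of all genes were. The count depended on the scaling of the arrays. With arrays scaled to equal medians instead, 5 of the 14 were lower in all 4 pairs (17.4% of all genes), the group's median was -0.07 and that of all genes 0.09.

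DDX21, which binds ribosomal RNA precursors and small nucleolar RNAs and helps RNA polymerase I transcription, stood furthest below the controls. Its signals were 2829 in 1#, 3379 in 2#, 4157 in control RNA and 5314 in untreated cells. Both MIF siRNA arrays lay below both controls, but the controls themselves differed by 1.28-fold. The difference from both controls was -0.60 ± 0.15 (SE, n = 2 arrays against 2, adjusted p 0.0653 in limma). It was lower in all 4 pairs under either scaling.

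DDX47, which acts in early cleavage of the ribosomal RNA precursor, had signals of 3295 in 1# and 4426 in 2#, with 5505 for control RNA and 5327 for untreated cells. Its difference was -0.50 ± 0.15 (SE, adjusted p 0.0861 in limma). The groups did not overlap, and the control arrays were within 1.03-fold of each other. DDX10, whose yeast counterpart releases a small nucleolar RNA from the precursor, had signals of 1168, 1401, 1596 and 1806 in 1#, 2#, control RNA and untreated cells. Its difference was -0.41 ± 0.12 (SE, adjusted p 0.0905 in limma), again with no overlap. DDX47 and DDX10 also stayed lower in all 4 pairs under scaling to equal medians.

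DDX54 went the other way within this group. It is the human counterpart of a yeast factor of the large ribosomal subunit and is also known as a corepressor of nuclear receptors. Its signals were 654.6 in 1# and 564.8 in 2#, with 445.3 for control RNA and 443.6 for untreated cells. Each siRNA array was 1.27-fold or more above either control, and the controls were level with each other. The difference was 0.45 ± 0.10 (SE, adjusted p 0.0588 in limma).

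The promoters of these 4 genes are shown because the first 3 had the lowest values of the nucleolar group and the last the highest. Each is the 250 bases before the most upstream start that RefSeq gives on GRCh38.p14, 5′ to 3′ on the gene's own strand. The windows are chr10:68955920-68956169 on the + strand for DDX21, chr12:12813096-12813345 on the + strand for DDX47, chr11:108664819-108665068 on the + strand for DDX10 and chr12:113185479-113185728 on the - strand for DDX54. Capitals mark matches, on either strand, to CACGTG (an E-box, the letters that MYC with MAX and related factors bind), the NRF1 motif and CCGGAAG (letters bound by ETS family factors).
DDX21: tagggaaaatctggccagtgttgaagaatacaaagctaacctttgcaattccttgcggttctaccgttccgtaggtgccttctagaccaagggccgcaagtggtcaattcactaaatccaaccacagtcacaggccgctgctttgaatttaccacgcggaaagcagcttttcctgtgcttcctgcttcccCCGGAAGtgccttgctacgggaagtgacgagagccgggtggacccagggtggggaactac
DDX47: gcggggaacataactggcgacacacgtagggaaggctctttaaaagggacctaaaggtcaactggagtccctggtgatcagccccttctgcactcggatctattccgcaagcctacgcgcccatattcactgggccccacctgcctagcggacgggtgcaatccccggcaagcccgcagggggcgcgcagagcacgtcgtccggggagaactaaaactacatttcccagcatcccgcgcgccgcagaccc
DDX10: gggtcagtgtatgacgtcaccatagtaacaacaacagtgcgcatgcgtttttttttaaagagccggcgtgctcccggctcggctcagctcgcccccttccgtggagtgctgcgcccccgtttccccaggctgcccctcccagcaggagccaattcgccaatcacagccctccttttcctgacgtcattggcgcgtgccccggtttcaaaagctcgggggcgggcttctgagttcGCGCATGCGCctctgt
DDX54: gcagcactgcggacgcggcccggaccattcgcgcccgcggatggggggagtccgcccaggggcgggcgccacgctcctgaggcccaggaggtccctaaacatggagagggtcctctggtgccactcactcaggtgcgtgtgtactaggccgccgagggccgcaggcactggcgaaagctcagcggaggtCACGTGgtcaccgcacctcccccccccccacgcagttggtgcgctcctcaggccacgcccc
The DDX21 window held CCGGAAG, that of DDX10 the NRF1 motif and that of DDX54 CACGTG, while the DDX47 window held none of the 3. The genes with low values thus had no motif of these in common. RefSeq windows of this length were found for 47 of the 50 members (64 windows, some of them overlapping), all but DDX49, DHX33 and DHX58. CACGTG was in 12.5% of the member windows, 7.83% of the windows of all genes tested and 6.34% of all windows. For the NRF1 motif these shares were 9.38%, 7.68% and 5.07%, and for CCGGAAG 31.2%, 12.3% and 8.52%. A match describes the letters of the window and is no evidence that a factor binds there.

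The other nucleolar members with the same direction in all pairs had smaller differences. DDX31, counterpart of a yeast large subunit factor, had 552.8 in 1# and 579.4 in 2# against 657.7 and 684.5 in control RNA and untreated cells (-0.25 ± 0.09, SE). DDX50, the close paralogue of DDX21, had 1661 and 1770 against 2053 and 2007 (-0.24 ± 0.09). Both kept the lower place in all 4 pairs under scaling to equal medians, with differences of -0.07 and -0.15.

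DDX27, which works with the PES1, BOP1 and WDR12 complex on the end of the large subunit RNA, had signals of 491.5 in 1# and 601.3 in 2#, with 687.5 for control RNA and 627.8 for untreated cells. Its 2# array was only 1.04-fold below untreated cells. The same was seen in DDX51, which acts on large subunit RNA, with 307.9 and 394.9 against 443.6 and 397.7, and in DDX49, with 215.6 and 251.3 against 287.9 and 254.6. In both, 2# was within 1.01-fold of untreated cells. DHX37, which removes the small nucleolar RNA U3 from the small subunit precursor, and the large subunit factor DDX56 had differences of -0.14 and -0.13. All of DDX27, DDX51, DDX49, DHX37 and DDX56 became mixed under scaling to equal medians.

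The other 3 genes of the group were mixed. DDX55, a large subunit factor, had 1255 and 1201 in 1# and 2#, below the 1460 of control RNA but on either side of the 1224 of untreated cells. DHX33, linked to RNA polymerase I transcription, had a difference of -0.04 ± 0.09 (SE). DDX24, also a large subunit factor, had a difference of 0.06 ± 0.09 (SE).

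**Figure D2:**
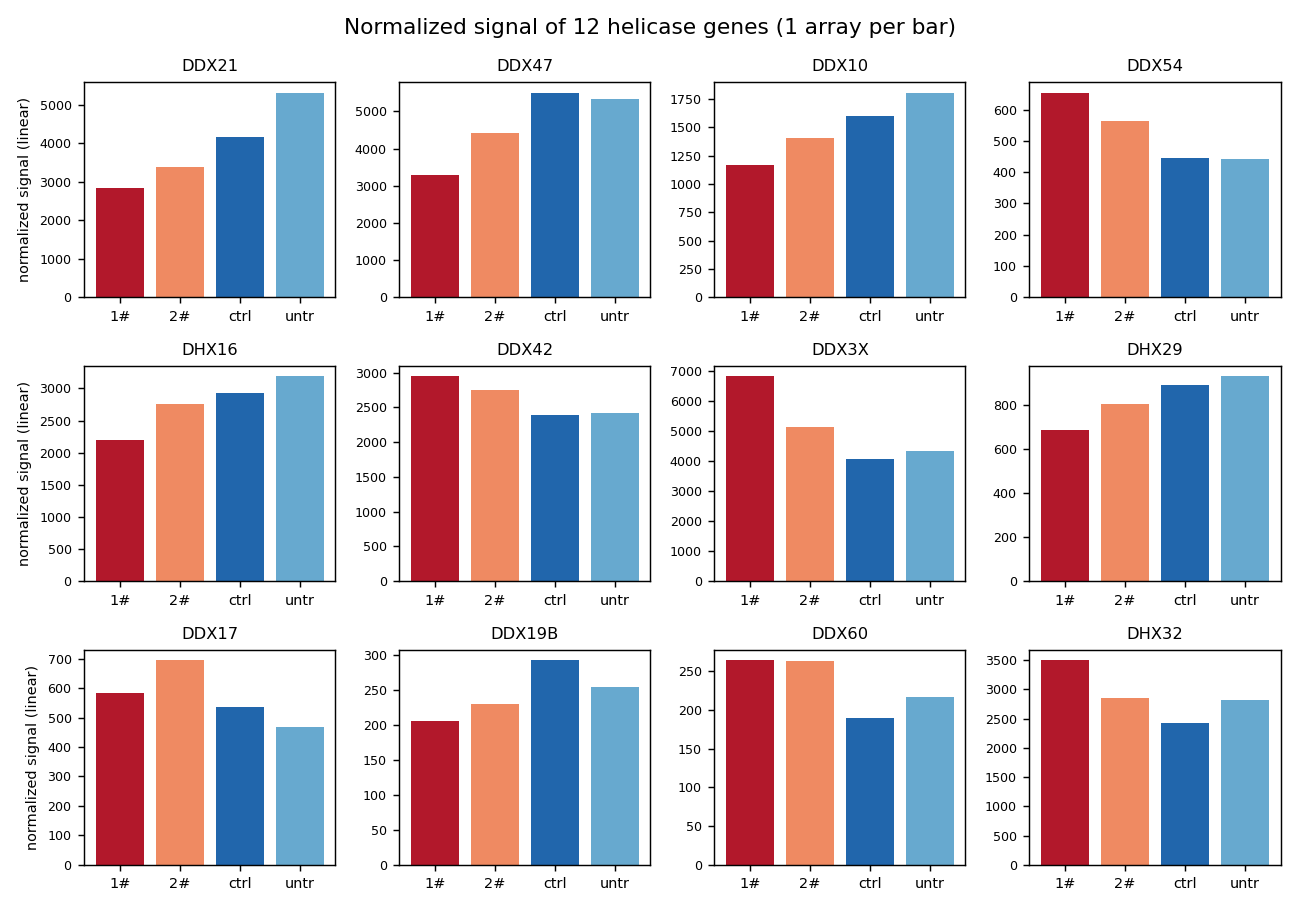
Bars give the normalized signal on a linear scale in 1#, 2#, control RNA (ctrl) and untreated cells (untr) for 12 helicase genes with differences among the largest of their roles, 1 array per bar and no error bars. DDX21 runs from 2829 in 1# to 5314 in untreated cells, and DDX3X from 6823 in 1# to 4081 in control RNA.

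Splicing helicases were mostly mixed. Of 10 measured, 2 were lower in all 4 pairs and 2 higher, against 28.7% and 32.6% of all genes, and 6 were mixed. The group's median was -0.06, turning to 0.07 under scaling to equal medians. DHX16, the human counterpart of yeast Prp2, which readies the spliceosome for the first catalytic step, had 2204 in 1# and 2756 in 2#, with 2925 for control RNA and 3188 for untreated cells (-0.31 ± 0.13, SE, adjusted p 0.169 in limma). DHX38, counterpart of Prp16, which acts between the catalytic steps, had 457.5 and 522.1 against 565.9 and 624.7 (-0.28 ± 0.11, adjusted p 0.14). Both sets of arrays were apart in these genes. Under the median scaling DHX16 stayed lower in all 4 pairs, and DHX38 became mixed with a difference of -0.098.

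DDX42, which binds the SF3B complex of the U2 particle, was on the other side. Its signals were 2947 in 1# and 2744 in 2# against 2386 and 2417 in control RNA and untreated cells, a difference of 0.24 ± 0.09 (SE, adjusted p 0.127 in limma). DHX8, counterpart of Prp22, which releases the spliced messenger RNA, was above both controls by at least 1.03-fold, with 243.3 and 242.7 against 227.9 and 235.6. DDX46, counterpart of Prp5, had 1049 and 1195 against 1259 and 1180, so that 1# alone was below both controls.

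The remaining splicing members showed little. DHX35 had a difference of -0.09 and DDX41, a spliceosome component also known in DNA sensing, one of 0.07. DHX15, counterpart of Prp43, which takes spent spliceosomes apart and also works on ribosome precursors, had 1855 and 1958 in 1# and 2# against 2068 and 1854 (-0.04 ± 0.10, SE). DDX23, counterpart of Prp28, stood at -0.00 ± 0.09 (SE). DDX39B, also called UAP56, which loads export factors on spliced RNA, had 6743 in 1# and 6656 in 2#, with 6685 for control RNA and 7425 for untreated cells, so the transfected arrays were close to each other and all below untreated cells.

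Cytoplasmic helicases lay on both sides of the controls. Of 7 measured, 1 was lower in all 4 pairs, 3 were higher and 3 were mixed, against 28.7% and 32.6% of all genes. Their median was 0.14, but -0.055 with no filter and -0.10 with a filter that kept probes above percentile 75. Both the median of 0.14 and the 3 higher genes include DHX57, which passed the filter only through the siRNA arrays. DDX3X, which helps ribosomes scan structured messages, had the highest difference of all members under quantile normalization, while DDX54, DDX60 and DDX17 were higher under scaling to equal medians. Its signals were 6823 in 1#, 5133 in 2#, 4081 in control RNA and 4349 in untreated cells, with a difference of 0.49 ± 0.14 (SE, adjusted p 0.0891 in limma). The groups did not overlap, and 1# was the higher of the siRNA arrays. DDX3X has a near-identical copy on the Y chromosome, DDX3Y, whose own probe had signals from 68.8 to 72.3, under the filter. The ability of the DDX3X probe to separate the genes was not tested.

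DHX29, which binds the small ribosomal subunit and also serves scanning of structured messages, had 687.0 in 1# and 802.6 in 2# against 891.8 and 928.6 in the controls (-0.29 ± 0.11, SE, adjusted p 0.127 in limma). Thus the scanning helicases DDX3X and DHX29 lay on opposite sides of the controls, each in all 4 pairs under both scalings, although the difference of DHX29 was -0.13 under scaling to equal medians. DDX6, which represses and decaps messages in P-bodies, had 135.8 in 1#, 173.6 in 2#, 112.7 in control RNA and 135.6 in untreated cells. Its 1# array was level with untreated cells, and its difference from both controls was 0.31 ± 0.15 (SE).

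DHX57, a member with little known function, had 83.0 and 86.8 against 73.6 and 76.5. It passed the filter of 75.6 only through the siRNA arrays, so its direction was partly fixed by the filter. DDX1, a subunit of the tRNA ligase complex, had 8816 in 1# and 7475 in 2# against 7098 and 7628, so that 1# alone was above both controls. DHX34, a factor of nonsense-mediated decay, had 502.4 in 1# alone below the controls, since its 653.1 in 2# lay between 625.0 and 669.7. DHX36, which unfolds G-quadruplexes, had 1148, 988.0, 1076 and 1205 in 1#, 2#, control RNA and untreated cells, with 2# the lowest.

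Helicases of nuclear RNA processing and export had 1 of 7 lower in all 4 pairs, 1 higher and 5 mixed. Of all genes, 28.7% were lower and 32.6% higher. DDX19B, which strips proteins off messages at the nuclear pore, had 206.1 in 1# and 230.0 in 2#, with 293.1 for control RNA and 254.1 for untreated cells (-0.33 ± 0.11, SE, adjusted p 0.114 in limma). Its close paralogue DDX19A had 834.8 and 703.1 against 654.2 and 733.0, a difference of 0.15 ± 0.12 (SE). Under scaling to equal medians the differences were -0.14 for DDX19B and 0.31 for DDX19A. These genes are nearly identical in sequence, so their probes may share signal, and the difference between them was not tested.

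DDX17, a cofactor of microRNA processing and of transcription, had 583.9 in 1#, 694.5 in 2#, 536.9 in control RNA and 467.5 in untreated cells (0.35 ± 0.12, SE, adjusted p 0.124 in limma). Both siRNA arrays exceeded both controls, and 2# was the higher. Under scaling to equal medians its difference was 0.54. DDX5, its paralogue, had 7425, 7051, 7168 and 6727 in the same order, which overlap. DHX9, a nuclear helicase that resolves RNA and DNA hybrids, had 1336, 1187, 1330 and 1312, so that only 2# was apart. DDX39A, the export paralogue of DDX39B, had a difference of -0.11 and DDX20, a partner of the SMN protein, one of -0.08.

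The smaller groups follow. DHX30, a mitochondrial ribosome factor, had 2146 and 1933 in 1# and 2# against 1883 and 1836, and DDX28, which serves the same particle, had a difference of -0.03. DDX60, an interferon-induced gene of viral RNA sensing, had 263.9 in 1# and 262.4 in 2# against 189.5 and 216.7. Each siRNA array was 1.21-fold or more above either control, and the difference was 0.38 ± 0.10 (SE, adjusted p 0.0714 in limma). DHX58, also known as LGP2, a regulator of RNA sensing, had 93.7 and 83.1 against 79.6 and 73.2.

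DHX32, a member of uncertain function, had 3499 in 1# and 2846 in 2#, with 2425 for control RNA and 2815 for untreated cells, with 2# within 1.01-fold of untreated cells. DDX11, a DNA helicase that helps sister chromatids hold together, had a difference of 0.10. DDX59, linked to ciliary signalling, and the cancer-testis gene DDX43 stood at -0.05 and -0.03. By letter family, 10 of 31 DDX genes were lower in all 4 pairs and 7 higher, with a median of -0.05. Of 15 DHX genes, 4 were lower and 5 higher, with a median of -0.07. Over all genes tested, 28.7% were lower and 32.6% higher.

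For most members 1# lay further from the controls than 2#. Of the 26 members that were lower or higher in all 4 pairs, 23 (88.5%) were further from the control mean in 1#, against 74.3% of the 8440 genes of that kind. The 3 exceptions were DDX6, DDX17 and DHX57, all higher. Against control RNA the nucleolar median was -0.28 in 1# and -0.19 in 2#, and against untreated cells it was -0.26 and -0.06. These comparisons share the MIF siRNA arrays. MIF itself was 1.93-fold below control RNA in 1# and 1.32-fold in 2#, and whether its level has a part in the difference between the arrays was not tested.

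**Figure D3:**
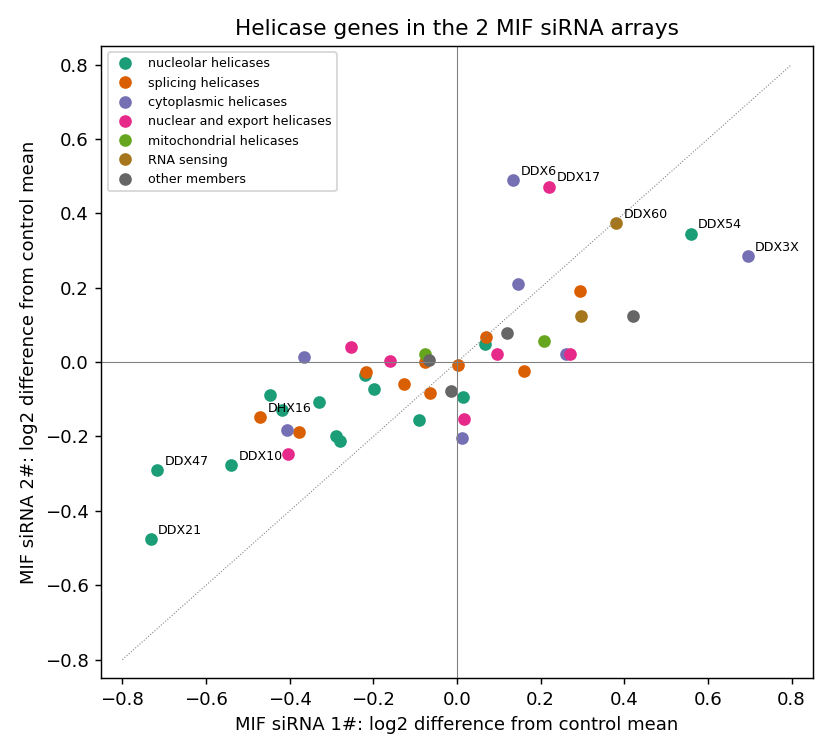
Each point is a helicase gene, with its log2 difference from the mean of both control arrays in 1# on the x axis and in 2# on the y axis, coloured by role. The dotted line marks equal differences, and DDX21 and DDX47 lie at the lower left, with DDX54 and DDX3X at the right.

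When each control was used alone, limma on group means called 0 members for MIF siRNA against control RNA and 0 against untreated cells, with 0% of all genes called in either. At an unadjusted p under 0.05 there were 6 and 4 members, against 16.8% and 12.8% of all genes. This fit has 1 residual degree of freedom, the pair of MIF siRNA arrays, and assumes that each control array varies like that pair. The smallest adjusted p among members was 0.252 against control RNA and 0.38 against untreated cells.

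Control RNA against untreated cells asked what transfection with a control RNA did to the same genes. The fit called 0 members (0% of all genes) and 0 had an unadjusted p under 0.05 (0.473% of all genes), and no member was 1.5-fold apart (0.0945% of all genes). Differences ran from -0.35 for DDX21, which was lower in control RNA, to 0.25 for DDX55, which was higher. Control RNA was below untreated cells in 26 of 46 members, against 51.9% of all genes. By role, it was below in 8 of 10 splicing, 7 of 7 cytoplasmic, 6 of 14 nucleolar and 1 of 7 nuclear and export helicases. The nucleolar median of this comparison was 0.02, against -0.23 for MIF siRNA minus both controls.

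A second probe gave a check on 10 members. In 7 of these it was above the filter, and in 6 of the 7 its difference was within 0.15 (log2) of that of the brightest probe. The exception was DDX39B, with -0.55 beside -0.07. In DDX19A, DDX59 and DHX9 the brightest probe's own difference was under 0.15 in size, so the limit says little there. DDX19A had 0.01 beside 0.15. DDX47's second probe had 2714 in 1# and 3178 in 2# against 4259 and 4236 in the controls, a difference of -0.53 beside -0.50. DDX31 had -0.29 beside -0.25 and DDX42 had 0.20 beside 0.24. The second probes of DDX3X, DDX5 and DHX57 were under the filter, so the value of DDX3X rests on 1 probe.

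Helicases of the same kind but other names were mixed as well. Their median was 0.03 over 11 measured, with DDX39B counted among them. Of these, 2 were lower in all 4 pairs and 3 higher, against 28.7% and 32.6% of all genes. EIF4A2, a translation initiation helicase, had 13649 in 1# and 9853 in 2# against 7552 and 7507 in the controls (0.62 ± 0.16, SE, adjusted p 0.067 in limma). EIF4A1, its close paralogue and the main initiation helicase, had -0.06, and EIF4A3 of the exon junction complex had 0.04. MOV10, which binds Argonaute complexes, had 1742 and 1547 against 1021 and 1184 (0.58 ± 0.11). MTREX, the nuclear exosome helicase, had 610.6 and 718.7 against 874.1 and 916.5 (-0.43 ± 0.11).

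Cofactors and partners of the helicases had a median of -0.03 over 42 genes. Of these, 15 were lower in all 4 pairs and 12 higher, against 28.7% and 32.6% of all genes. At an unadjusted p under 0.05, 11 were lower and 8 were higher, where 12.7% and 17.0% of all genes were. WDR12, the partner of DDX27 in the large subunit complex, had 1682 in 1# and 2187 in 2# against 3182 and 3328 in the controls (-0.76 ± 0.14, SE, adjusted p 0.0501 in limma). GPATCH4, a G-patch protein of the nucleolus, had 546.1 and 706.4 against 1045 and 947.5. MAGOH, a subunit of the exon junction complex, had 2496 and 2928 against 5076 for control RNA and 3751 for untreated cells. EIF4B, which stimulates the initiation helicase, was above the controls, with 14390 and 10247 against 6835 and 8033.

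Genes of the small nucleolar particles and the ribosomal processome, on whose RNA the nucleolar helicases act, had a median of -0.30. Of 28 tested, 21 were lower in all 4 pairs and 1 higher, against 28.7% and 32.6% of all genes. At an unadjusted p under 0.05 there were 17, all lower, where 12.7% of all genes were lower. None had an adjusted p under 0.05 in limma, as over all genes. Examples are NIP7, with 1026 in 1# and 1442 in 2# against 2771 and 2710 in the controls, and RRP9, which binds U3, with 380.0 and 515.8 against 865.5 and 873.6. RRS1, an assembly factor of the large subunit, had 919.6 and 956.3 against 1505 and 1531. GAR1, a pseudouridylation factor, had 263.3 and 328.9 against 618.2 in control RNA but 376.5 in untreated cells.

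Core spliceosome genes had 17 of 30 lower in all 4 pairs and 3 higher, against 28.7% and 32.6% of all genes. Their median was -0.15. Of the 10 splicing helicases, 2 were lower and 2 higher. SNRPF had 5193 in 1# and 6713 in 2# against 9597 and 7793 in the controls, and SNRPC 1345 and 1542 against 1953 and 1975. PRPF6 had 407.1 and 467.2 against 611.8 and 567.9, and SNRPD1 330.6 and 341.5 against 453.6 and 434.6. Of 10 housekeeping genes, 3 were lower in all 4 pairs and 4 higher, with a median of 0.02.

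**Figure D4:**
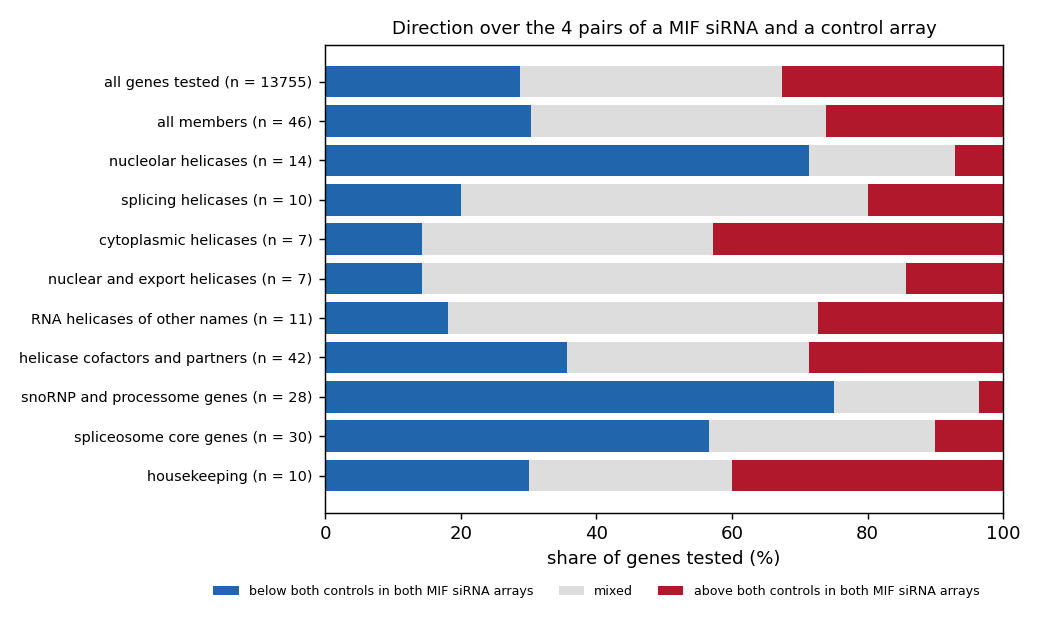
Bars give, for each gene list, the share of its tested genes (x axis, percent) lower in all 4 pairs (blue), higher in all (red) or mixed (grey). Nucleolar helicases (10 of 14 lower) and small nucleolar particle and processome genes (21 of 28 lower) stand beside 28.7% lower among all genes tested.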

How the data were processed

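Total RNA of 4 HEK293 samples was hybridised in 1 colour to Illumina Human-6 arrays. Each deposited table of a sample gives a linear intensity for every probe, made with BeadStudio per the submitters' processing notes. The lowest of these intensities was 39.8 and array medians differed, so no background subtraction or normalization was apparent, and background left in the signal makes differences of dim genes too small. The authors' value table for the whole series has normalized intensities, method not given in the sources used here. Its identifiers shift by 1 row from row 19832 on, so rows were matched by position. Probes were named from GEO's platform annotation, and old symbols were replaced by those of RefSeq GRCh38.p14 with the same Entrez identifier. Of 48701 probes, 23687 had 1 gene, 35 several, and 24979 were unnamed.

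Intensities were quantile-normalized, floored at 32 and log2-transformed. Each gene was read from its brightest probe. Genes with a mean signal above the median of all probes (13755) were fitted with limma 3.58.1 (lmFit, eBayes, two-sided, Benjamini-Hochberg over all genes, threshold 0.05). The fit of 2 arrays against 2 has 2 residual degrees of freedom and counts the difference between control RNA and untreated cells as spread. An exact permutation test of 2 arrays against 2 cannot go below p = 0.333. The steps were tested on simulated data with independent noise, which held no shift between arrays and no difference between the control conditions. The rule for named genes asked for values of the 6 members of each role furthest from the controls and of its brightest, of the 3 furthest helicases of other names and of the 4 furthest genes of each partner list. Beyond it, at least a difference is given for the remaining members tested, with EIF4A1 and EIF4A3. Members, role lists and tests were chosen with earlier results of these data known. No set test was run.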

Additional observations from a re-analysis of the deposited data

How the results depend on the processing

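No paired analysis was possible because the control conditions have 1 array each and carry no replicate numbers of their own. The number of arrays limits every value, and dim signals near the array background understate differences. For MIF siRNA against both controls, 0 members and 0 genes were called with the series value table or a normexp correction. The same held with floors of 16 and 64 and with the mean of all probes. With no filter 0 of 50 members were called, beside 590 of 18774 genes. With a filter at percentile 75, 0 of 39 members were called, beside 927 of 9224 genes. 4 members were called with arrays scaled to equal medians, where 11.5% of all genes were. With an intensity trend in the variance 1 member was called, where 7.32% of all genes were. Leaving out 1 array gave 0 to 18, with 11.9% of all genes called without 1#, 33.8% without 2# and 0 without either control. Against control RNA alone, untreated cells alone, and between the control conditions, every fit that could be run called 0. Members lower in all pairs numbered 9 with the median scaling (17.4% of all genes), and 18 were higher there (46.8% of all genes). When an array was left out, which leaves only 2 pairs to meet, 19 to 22 were lower (36.7% to 41.4% of all genes). Members 1.5-fold lower numbered 0 to 1 then. Nucleolar members lower in all pairs numbered 5 with the median scaling and 10 to 12 without an array, beside the same shares of all genes. Those lower at an unadjusted p under 0.05 numbered 3 with the median scaling, 3 with the intensity trend and 2 to 8 without an array, where 6.63%, 12.3% and 5.45% to 18.4% of all genes were. Both nucleolar counts were chosen after seeing the data. Across all gene tests the median scaling gave 1581 calls, 86.3% of them higher, no filter 590 and the filter at percentile 75 gave 927, against 0.

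With the median scaling the nucleolar median was -0.072 and the splicing median turned to 0.066. The cytoplasmic median turned to -0.055 with no filter and to -0.10 with the filter at percentile 75. Without 1 array the nucleolar median ran from -0.28 to -0.12, the splicing one from -0.075 to -0.0082 and the cytoplasmic one from 0.023 to 0.19. Settings were compared for 64 genes. These were MIF, the members tested and the genes given with values from the other helicase, partner, processome and spliceosome lists. The cell type markers were not among them. Of 825 values under other settings, 706 kept their direction and side of the threshold, 85 passed it and 34 changed sign. With the median scaling these were DDX46 (0.014), DHX35 (0.10), DHX34 (0.0033), DHX9 (0.056), DDX5 (-0.014), DDX28 (0.17), DDX59 (0.12), DDX55 (0.0043), DHX33 (0.054), DHX15 (0.043), DDX23 (0.089), DHX36 (0.050) and EIF4A3 (-0.028). The others came from leaving out 1 array, with these lowest and highest values. They were -0.36 and 0.014 for DHX34, -0.25 and 0.040 for DDX39A, -0.16 and 0.0038 for DDX20, -0.075 and 0.021 for DDX28, -0.14 and 0.0082 for EIF4A1 and -0.029 and 0.11 for EIF4A3, each turned without 1#. They were -0.15 and 0.016 for DHX9 and -0.20 and 0.012 for DHX36, turned without 2#, and -0.093 and 0.014 for DHX33 and -0.075 and 0.071 for DDX23, turned without 2# or untreated cells. They were -0.15 and 0.0030 for DDX39B, turned without untreated cells, and -0.25 and 0.0042 for DDX55 and -0.026 and 0.14 for DDX24, turned without control RNA. They were -0.10 and 0.039 for DDX43, -0.12 and 0.040 for DHX15 and -0.049 and 0.19 for DDX41, turned without 1# or control RNA. The cause of these turns was not tested.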

Other observations

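DDX39B was the member whose probes disagreed most among those with a second probe above the filter. Its brightest probe had signals of 6743 in 1# and 6656 in 2#, with 6685 for control RNA and 7425 for untreated cells, a log2 difference of -0.07. Its dimmer probe had 153.0 and 166.3 against 245.6 and 221.7, a difference of -0.55, lower in all 4 pairs. The platform table gives both probes the same transcript accession. The probes were singled out after their values were seen, and the cause of the disagreement was not tested.

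Among the promoter windows of the 47 matched members, those of 19 genes held CCGGAAG. Of these genes, 7 were lower in all 4 pairs and 5 were higher, against 28.7% and 32.6% of all genes tested. The letters were thus found on both sides. DDX3Y, also among the 19, was under the filter, and the 5 include DHX57, which passed it only through the siRNA arrays. CACGTG was in some window of 8 genes. Of these, DDX21 (in a window of a later start, not the one printed) and DDX31 were lower in all 4 pairs, and DDX54 and DHX32 were higher.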
